A study of Homo sapiens with 18 samples.

Results

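Splicing of messenger RNA precursors is steered by a few families of RNA-binding proteins, and the transcripts of 43 genes from these families were followed here in lung cancer cells forced to express a T-box transcription factor. The genes were 11 SR proteins (SRSF1 to SRSF11), 2 TRA2 proteins, 16 hnRNPs including RBMX and PTBP1, the 4 CLK kinases, 4 SR-related or nuclear speckle proteins (SON, SRRM1, SRRM2 and RBM39), 4 proteins of the spliceosome itself (U2AF2, SF3A1, SF3B1 and SLU7), and the paired nuclear body proteins NONO and SFPQ. They were chosen by name, with earlier results of these data known, and each was matched to 1 Ensembl identifier among the 63677 genes counted. Enough reads for testing were found for 42 of them, out of 15576 genes tested, and no read was assigned to the identifier of SRSF8 in any library. The libraries came from NCI-H1299, a human lung cancer cell line that the labels call lung adenocarcinoma. There were 18 libraries in 6 groups of 3: cells labelled Ctl, whose treatment the labels do not give, cells with empty vector (EV), and cells transiently transfected with human Flag-tagged TBX2, human HA-tagged TBX3, human Flag-tagged TBX4 or mouse HA-tagged Tbx5. The Flag-tagged genes were in a pORF plasmid and the HA-tagged genes in pCGN, with a lipid carrier, and the study reports that only some of the cells took up plasmid. A smaller change in many cells and a larger change in the transfected cells cannot therefore be told apart.

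As background, SR proteins carry arginine- and serine-rich tails and mostly help the spliceosome to define an exon, whereas many hnRNPs coat the transcript and hold sites back. CLK kinases phosphorylate the SR tails in the nucleus and so release SR proteins from nuclear speckles, the bodies built on SON and SRRM2. Many of these genes limit their own output through exons that send the transcript to decay, and the counts here, summed over a whole gene, do not separate such transcripts from those that code for protein.

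Each library held between 7365221 and 11743179 counts over genes, and each tested splicing factor gene had between 44 and 6898 counts in a library. The transfected genes stood out in the libraries named for them: TBX2 was at 4086 to 4821 counts per 1000000 (CPM, with library sizes scaled by the trimmed mean of M-values), TBX3 at 17750 to 25410 CPM, TBX4 at 7543 to 8497 CPM and TBX5, whose plasmid carries the mouse sequence, at 129 to 242 CPM. The library labelled 4c-TBX5 held 7888 CPM of TBX4 and 0.0926 CPM of TBX5, and it was grouped as TBX4 replicate c by its number. In all 18 libraries the epithelial markers EPCAM, CDH1 and KRT19 and the lung markers NKX2-1 and SFTPB stayed at 0.574 CPM or less and NAPSA reached 1.15 CPM, KRT7 lay between 0.107 and 2.82 CPM, KRT8 between 19.3 and 52.7, KRT18 between 43.2 and 75.8, CDH2 between 20.6 and 31.2 and VIM between 691.5 and 970 CPM. The white blood cell and endothelial markers PTPRC, CD3E, CD14 and VWF reached at most 0.804 CPM. One identifier, ENSG00000266658, took 10.7% to 53.5% of the counts of a library and only 13.2% to 18.6% in the TBX4 libraries, so scaling mattered. When library totals replaced the trimmed mean, the median of all genes moved by 0.25 on the log2 scale with TBX4 and by -0.31 with TBX5, all 42 splicing factor genes came out higher with TBX4 and only 1 with TBX5, and 7 of the 8 calls with TBX4 turned in sign. Relative to that shift none of the calls turned with any of the plasmids. All directions given here are relative to the other genes of the same libraries, and under library totals they hold only relative to that shift.

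The comparison of each TBX group with the 6 control libraries asked which splicing factor transcripts changed with each T-box factor. SLU7, which the spliceosome needs for its second catalytic step, rose 1.46- to 1.77-fold with all 4 factors, and HNRNPF and HNRNPA1 fell with all 4. The TBX2 comparison called the most genes, 20 of 42 or 47.6%, with 7 higher and 13 lower. Over all genes tested, 32.6% passed in that comparison, 17.0% higher and 15.6% lower, so 7 of 42 is close to the share of higher calls over all genes and 13 of 42 is above the share of lower calls. With TBX3, 9 genes passed, 6 higher and 3 lower, against 14.9% of all genes, 8.47% higher and 6.40% lower. TBX4 and TBX5 each gave 8 calls, of which 7 were lower and only SLU7 was higher. The shares over all genes were 13.0% with TBX4, made of 6.97% higher and 6.07% lower, and 12.7% with TBX5, made of 6.55% higher and 6.12% lower. The genes were chosen with earlier results of these data known, so a share above that of all genes is not independent of that choice. A call means an adjusted p under 0.1 in edgeR's quasi-likelihood test, adjusted after Benjamini and Hochberg over all genes tested. The 4 comparisons share their control libraries. Nothing in the labels says that replicates came from separate cultures, so the p-values measure only the spread between these libraries. The pORF and pCGN plasmids were set against the same EV and Ctl libraries. Plasmid, tag and level of the transfected gene therefore cannot be told apart from the factor in these comparisons.

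**Figure D1:**
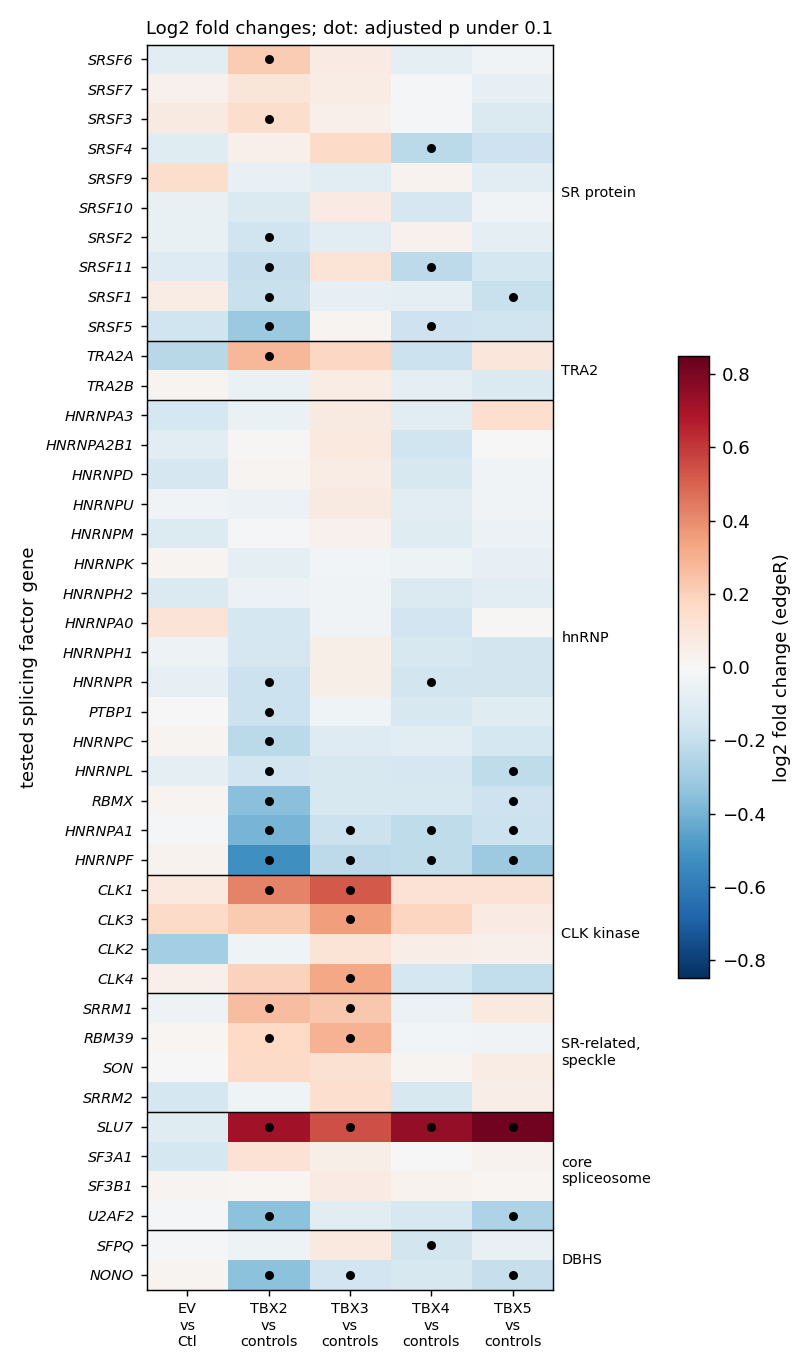
Log2 fold change (colour, edgeR) of the 42 tested splicing factor genes (rows, grouped by family) in EV against Ctl and in each TBX group against the 6 control libraries (columns), with a black dot where the adjusted p was under 0.1. SLU7 was higher in all 4 TBX columns, the lower hnRNPs HNRNPA1 and HNRNPF carried dots in all 4, and the EV column carried none. Values are relative to the median gene, as library totals would shift the whole TBX4 and TBX5 columns.

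Of the 42 genes, 24 were called with at least 1 factor, 3 of them with all 4, and none was called in both directions. The matching counts over all genes tested were not taken, so these counts cannot be set beside a share of all genes. The median log2 fold change of the 42 was -0.05 in the TBX2 comparison, 0.06 for TBX3, -0.11 for TBX4 and -0.07 for TBX5, beside medians over all genes between -0.006 and -0.001. On the higher side were 16 genes for TBX2, 28 for TBX3, 9 for TBX4 and 13 for TBX5, whereas under library totals these numbers were 15, 12, 42 and 1. Most changes were small: apart from SLU7, the called log2 fold changes ran from -0.52 for HNRNPF with TBX2 to 0.52 for CLK1 with TBX3.

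T-box factors bind a core sequence with the letters GGTGT, most often within AGGTGTGA, and these letters were searched on both strands of the 250 bases before the outermost annotated start of 12297 tested protein-coding genes. The core was present in 31% of all genes and in 7 of 42 splicing factor genes or 16.7% (SRSF6, SRSF7, HNRNPL, HNRNPM, RBMX, CLK2 and SRRM2), and any AGGTGTGA also contains GGTGTGA and GGTGT. The letters GGTGTGA were in 2.73% of all genes and AGGTGTGA in 0.691%, and CLK2, which was called with none of the factors, was the only splicing factor gene that held either. The last 100 bases before the start are shown for SLU7 and HNRNPF, the genes that moved furthest in each direction with several factors, and for CLK1 and RBM39, which differed most among the factors, with a 100-base stretch of CLK2 around its match. They are read 5′ to 3′ on the gene's own strand, which is the minus strand in all 5, from the GRCh37 genome with the GENCODE gene models lifted to it. The windows are chr5:159848719-159848818 for SLU7, chr10:43904635-43904734 for HNRNPF, chr2:201729415-201729514 for CLK1, chr20:34330235-34330334 for RBM39 and chr1:155248416-155248515 for CLK2, all upstream of the annotated exons. Capitals mark TCACACCT, which is AGGTGTGA read from the opposite strand.
SLU7: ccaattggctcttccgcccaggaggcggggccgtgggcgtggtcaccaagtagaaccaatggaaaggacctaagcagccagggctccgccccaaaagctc
HNRNPF: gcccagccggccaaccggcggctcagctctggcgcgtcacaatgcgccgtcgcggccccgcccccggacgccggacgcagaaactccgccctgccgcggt
CLK1: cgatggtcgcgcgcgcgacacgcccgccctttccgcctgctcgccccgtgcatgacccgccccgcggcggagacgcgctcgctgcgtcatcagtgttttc
RBM39: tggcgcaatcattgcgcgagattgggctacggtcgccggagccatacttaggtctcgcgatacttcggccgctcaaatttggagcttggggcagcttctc
CLK2: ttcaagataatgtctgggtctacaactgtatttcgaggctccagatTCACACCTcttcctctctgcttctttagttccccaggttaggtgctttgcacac
The windows of SLU7, HNRNPF, CLK1 and RBM39 contain none of the searched letters. That describes only these 100 bases, and no binding was measured in these libraries.

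SLU7 (chromosome 5, 159828648 to 159848718, minus strand) had the largest change of the 42 genes in each comparison of a TBX group with the controls. The 6 control libraries held 41.2 to 49.4 CPM, with a median of 43.6. The TBX2 libraries held 67.3, 73.5 and 77.6 CPM, the TBX3 libraries 62.4, 71.8 and 61.4, the TBX4 libraries 77.0, 76.8 and 69.8, and the TBX5 libraries 66.9, 88.1 and 83.0. Every TBX library lay above every control library. The log2 fold change was 0.71 ± 0.07 (SE) for TBX2, 0.55 ± 0.07 for TBX3, 0.75 ± 0.06 for TBX4 and 0.82 ± 0.08 for TBX5. The adjusted p was 4.31e-08, 5.74e-06, 2.68e-09 and 4.68e-07 in the same order, and each call was kept whichever library was left out. Between the TBX groups, the level was lower with TBX3 than with TBX5 by 0.29 ± 0.09 on the log2 scale (adjusted p = 0.0988), and no other pair of groups passed. The test among all 4 TBX groups did not call it (0.153).

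HNRNPF (chromosome 10, 43881065 to 43904634, minus strand) binds runs of G and fell with all 4 factors. The controls held 155.7 to 179 CPM, with a median of 167. The TBX2 libraries held 113, 134 and 103 CPM, the TBX3 libraries 145, 152 and 134, the TBX4 libraries 154, 151 and 129, and the TBX5 libraries 118, 143 and 146. All 12 TBX libraries were below the lowest control, although the highest TBX4 library missed it by under 2 CPM. The log2 fold change was -0.52 ± 0.07 with TBX2 (adjusted p = 1.09e-05), -0.22 ± 0.06 with TBX3 (0.0148), -0.21 ± 0.06 with TBX4 (0.0257) and -0.31 ± 0.07 with TBX5 (0.00551). Without the library labelled 4c-TBX5, the value with TBX4 was -0.13 and did not pass (adjusted p = 0.25). HNRNPF was lower with TBX2 than with TBX3, by 0.29 ± 0.09 on the log2 scale (adjusted p = 0.0574), and lower than with TBX4, by 0.30 ± 0.09 (0.0538).

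HNRNPA1 (chromosome 12, 54673977 to 54680872, plus strand), a classical repressor of exons that shuttles between nucleus and cytoplasm, took the same direction. Its controls lay between 440.2 and 502 CPM with a median of 450.1. TBX2 gave 333, 349 and 371 CPM, TBX3 410.4, 451 and 363, TBX4 411, 405 and 381, and TBX5 382, 434 and 408. The TBX2, TBX4 and TBX5 libraries did not overlap the controls, and 1 TBX3 library did. The log2 fold change was -0.40 ± 0.07 with TBX2 (adjusted p = 8.88e-05), -0.18 ± 0.07 with TBX3 (0.0949), -0.22 ± 0.06 with TBX4 (0.0183) and -0.18 ± 0.06 with TBX5 (0.0803). Only the call with TBX2 was kept whichever library was left out: the call with TBX4 was lost without the library labelled 4c-TBX5 (0.126), and those with TBX3 and TBX5 were lost without Ctl c, EV a, EV b, or replicate a or c of the TBX group itself (up to 0.40 and 0.27). The annotation holds 74 numbered HNRNPA1 pseudogenes, and reads that match both the gene and a pseudogene could have been counted for either or for neither.

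NONO (X chromosome, 70474664 to 70521372, plus strand), a nuclear protein that works in a dimer with SFPQ, fell with 3 factors. Its controls spanned 360.2 to 421 CPM around a median of 403. The TBX2 libraries held 318, 339.7 and 282 CPM, the TBX3 libraries 364, 367 and 338, the TBX4 libraries 372, 372 and 346, and the TBX5 libraries 304, 378 and 364. TBX2 libraries were all below the controls, and the other groups overlapped the lowest control, Ctl a. The log2 fold change was -0.35 ± 0.07 with TBX2 (adjusted p = 0.000573), -0.16 ± 0.06 with TBX3 (0.0892), -0.14 ± 0.06 with TBX4 (0.135) and -0.20 ± 0.07 with TBX5 (0.0827). The call with TBX2 was kept whichever library was left out. With TBX3 it was kept in 2 of 9 such fits, without Ctl a or EV c, and with TBX5 in 3 of 9, without Ctl a, EV c or TBX5 b. The partner SFPQ was called only with TBX4 (-0.16 ± 0.06, adjusted p = 0.0804), a call lost without Ctl c, EV a, EV b or any TBX4 library (up to 0.221). SLU7, HNRNPF, HNRNPA1 and NONO are also named by the study, which chose them on these same libraries, so their calls here are not independent of that choice.

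**Figure D2:**
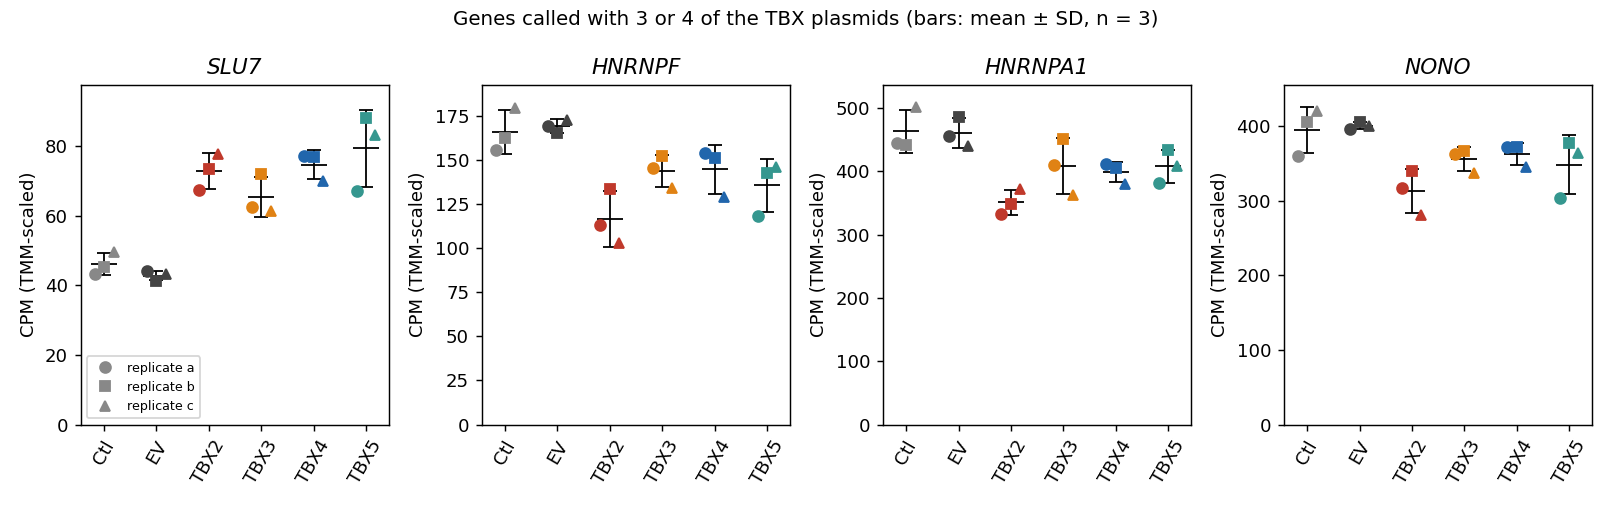
CPM (scaled by the trimmed mean of M-values) of SLU7, HNRNPF, HNRNPA1 and NONO in each of the 18 libraries by group, with replicate letters as symbols and bars for the mean ± SD of 3 libraries. SLU7 was at 61.4 CPM or more in all TBX libraries and at 49.4 or less in all controls, while the other 3 genes were lowest with TBX2. TBX4 replicate c is the library labelled 4c-TBX5.

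The calls among the hnRNPs were all lower, though not all hnRNPs were. With TBX2, 7 of 16 or 43.8% were called, all lower, beside 15.6% of all genes called lower. The 7 were HNRNPF, HNRNPA1, RBMX (-0.36 ± 0.06, adjusted p = 0.00011), HNRNPC (-0.23), HNRNPR (-0.18), PTBP1 (-0.18) and HNRNPL (-0.16). RBMX, an X-linked hnRNP, lay at 262 to 283 CPM in the controls and at 197, 223 and 220 CPM with TBX2, 247, 247 and 253 with TBX3, 260, 250 and 240 with TBX4 and 233, 237 and 259 with TBX5. All 12 TBX libraries were thus below all controls, and RBMX also passed with TBX5 (-0.17 ± 0.06, adjusted p = 0.0607) but not with TBX3 (-0.13, 0.118) or TBX4 (-0.13, 0.113). Its call with TBX5 was lost without Ctl c, EV b, TBX5 a or TBX5 b (up to 0.199). HNRNPL, which binds CA repeats, was also lower with TBX5 (-0.22, adjusted p = 0.0627), and HNRNPR with TBX4 (-0.16, 0.0699). With TBX4, all 16 hnRNPs were on the lower side of the median gene, between -0.22 and -0.04, but only 3 or 18.8% were called. Of all 15576 genes, 7987 were on the lower side there and 6.07% were called lower. Under library totals all 16 hnRNPs were above 0 with TBX4, and relative to the shift of the median gene all were below it again. With TBX3, 7 of the 16 were on the higher side and 9 on the lower. Only HNRNPF and HNRNPA1 were called, 12.5% of the 16, beside 6.40% of all genes called lower. HNRNPK, HNRNPM, HNRNPU, HNRNPH1, HNRNPH2, HNRNPA0, HNRNPA2B1, HNRNPA3 and HNRNPD were called with none of the factors.

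The SR proteins split. With TBX2, 6 of 10 were called, beside 32.6% of all genes. SRSF6 (0.22 ± 0.06, adjusted p = 0.00942) and SRSF3 (0.15 ± 0.06, 0.0514) were higher. SRSF5 (-0.32 ± 0.07, 0.000928), SRSF11 (-0.20 ± 0.07, 0.035), SRSF1 (-0.19 ± 0.06, 0.0157) and SRSF2 (-0.17 ± 0.06, 0.0403) were lower. With TBX3 none was called, beside 14.9% of all genes, and 1 of the 10, SRSF11, had an unadjusted p under 0.05. TBX4 gave 3 lower calls, SRSF4 (-0.23 ± 0.07, adjusted p = 0.0398), SRSF11 (-0.22 ± 0.06, 0.0137) and SRSF5 (-0.18 ± 0.06, 0.0645), beside 6.07% of all genes. TBX5 gave 1 lower call, SRSF1 (-0.19 ± 0.05, 0.035), beside 6.12% of all genes. SRSF1, the founding SR protein, shares 35.1% of its exon bases with other genes on either strand, SRSF9 shares 46.7% and SRSF2 27.7%, and reads in such bases could have been assigned to either gene or to none. SRSF7, SRSF9 and SRSF10 were called with none of the factors.

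SRSF5, an SR protein first known as a growth-induced gene, had the largest mean change of its family. Its level was 101 to 118 CPM in the controls. With TBX2 it was 84.8, 90.1 and 85.9 CPM, with TBX3 104, 122 and 106, with TBX4 99.9, 95.2 and 93.5, and with TBX5 74.0, 111 and 108. The TBX2 and TBX4 libraries were below all controls, while the TBX5 group held both the lowest library of all 18 and 2 within the control range. Without TBX5 a, the log2 fold change with TBX5 turned from -0.17 to 0.02, and neither value passed. The call with TBX2 was kept whichever library was left out, and that with TBX4 was lost without Ctl b, Ctl c or any TBX4 library (up to 0.227). EV libraries were at 101 to 103 CPM and Ctl libraries at 111 to 118, a log2 difference of -0.17 ± 0.06 (adjusted p = 0.329), and against EV alone the value with TBX4 was -0.09 (0.431). Of the TRA2 proteins, which bind GAA-rich exons, TRA2A was called only with TBX2 (0.28 ± 0.11, adjusted p = 0.0556). Its TBX2 libraries held 34.0, 29.6 and 43.8 CPM and its controls 26.0 to 34.1, and without TBX2 c the value was 0.14 and did not pass (0.413). TRA2A was at 34.1, 33.5 and 26.3 CPM in the Ctl libraries and at 26.0 to 27.3 CPM in the EV libraries, and its call was also lost without EV c. TRA2B was called with none of the factors.

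Calls among the CLK kinases came with TBX2 and TBX3. CLK1 was at 25.0 to 30.3 CPM in the controls, 33.8, 37.2 and 33.0 with TBX2, 34.3, 38.3 and 38.9 with TBX3, 28.6, 29.9 and 26.6 with TBX4, and 25.2, 32.9 and 28.3 with TBX5. The TBX2 and TBX3 libraries did not overlap the controls and the TBX4 and TBX5 libraries did. The log2 fold change was 0.42 ± 0.08 with TBX2 (adjusted p = 0.00028) and 0.52 ± 0.07 with TBX3 (3.97e-05), and both calls were kept whichever library was left out. It was 0.12 ± 0.07 with TBX4 (0.33) and 0.12 ± 0.09 with TBX5 (0.461). CLK3 (0.36 ± 0.10, adjusted p = 0.0208) and CLK4 (0.33 ± 0.12, 0.0788) passed the threshold, on the higher side, only with TBX3. In that comparison 3 of the 4 kinases were thus called higher, beside 8.47% of all genes. CLK4 was not called there by DESeq2's Wald test (adjusted p = 0.126), nor by edgeR against EV alone (0.2). The CLK3 call was lost without TBX3 a or b (up to 0.115) and the CLK4 call without Ctl a, EV c, TBX3 b or TBX3 c (up to 0.285). With TBX2, CLK3 was at 0.22 ± 0.10 and narrowly missed the threshold (adjusted p = 0.106), but it was called there against Ctl alone. The test among all 4 TBX groups did not call CLK3 (0.287). CLK2 was called with none.

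RBM39, a relative of U2AF2 that joins transcription to splicing, and SRRM1, a splicing coactivator, also rose with TBX2 and TBX3. RBM39 (chromosome 20, 34289269 to 34330234, minus strand) lay at 176 to 189.9 CPM in the controls, at 195, 211 and 209 with TBX2 and at 216, 238 and 219 with TBX3, all above the controls, with log2 fold changes of 0.17 ± 0.06 (adjusted p = 0.0294) and 0.30 ± 0.05 (0.000691). With TBX4 (192, 167 and 180.3 CPM) and TBX5 (169, 178 and 191 CPM) it overlapped them. SRRM1 held 66.7 to 84.5 CPM in the controls. Its libraries held 94.7, 83.1 and 108 CPM with TBX2 (0.26 ± 0.08, adjusted p = 0.0182) and 99.3, 102 and 79.4 CPM with TBX3 (0.23 ± 0.08, 0.0582). With TBX4 it held 74.5, 71.9 and 83.6 CPM and with TBX5 77.8, 86.9 and 87.1. One library of each of the TBX2 and TBX3 groups fell within the control range, the TBX2 call was lost without TBX2 c (0.156) and the TBX3 call without EV c, TBX3 a or TBX3 b (up to 0.291). SON and SRRM2 were called with none. In the spliceosome itself, U2AF2, which reads the pyrimidine tract before the 3′ splice site, fell with TBX2 (-0.35 ± 0.07, adjusted p = 0.000705) and TBX5 (-0.26 ± 0.08, 0.0402), the latter lost without TBX5 a (0.337). SF3A1 and SF3B1 of the U2 particle did not pass with any factor.

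With TBX2, 11 of the 20 calls were kept whichever library was left out. The other 9 were lost without TBX2 a (SRSF11, HNRNPR and HNRNPC), TBX2 b (SRSF2, SRSF3, HNRNPL and PTBP1), TBX2 c (SRSF2, SRSF3, SRRM1 and TRA2A) or EV c (TRA2A), with adjusted p up to 0.413. Leaving out TBX3 a or TBX3 b brought the 9 calls with TBX3 to 5. With TBX4 only SLU7 was kept throughout: SRSF4 was lost without any 1 of the TBX4 libraries (up to 0.149), SRSF11 without TBX4 b (0.132), and HNRNPR without Ctl b, Ctl c, EV a, EV b, TBX4 a or TBX4 b (up to 0.291). With TBX5, SLU7 and HNRNPF were kept throughout, HNRNPL was lost without Ctl c, EV b, TBX5 b or TBX5 c (up to 0.388) and SRSF1 without TBX5 b or TBX5 c (up to 0.137). Of the 8 calls with TBX4, 4, 3 and 3 were kept without replicates a, b and c. Of the 8 with TBX5, 4 were kept without Ctl c, EV b, TBX5 a or TBX5 c, and 5 without TBX5 b. New calls brought the totals to 4 without TBX4 c, 6 without TBX5 a or TBX5 b, and 5 without TBX5 c.

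The test among the 12 TBX libraries asked whether the TBX groups differed from each other, without the controls. Plasmid and tag were shared by TBX2 and TBX4 and by TBX3 and TBX5, but differed between these pairs. The measured level of the transfected gene also differed among the groups, and Tbx5 was mouse. The factor itself cannot be told apart from these. It called 11 of the 42 genes, beside 18.6% of all genes tested. CLK1 (adjusted p = 0.00614), RBM39 (0.00646), CLK4 (0.0128) and SRSF4 (0.017) kept this call whichever of the 12 libraries was left out. In all 4 the order of the means was TBX3 first, then TBX2, then TBX4 and TBX5. CLK1 was higher with TBX3 than with TBX4 by 0.39 ± 0.09 on the log2 scale (adjusted p = 0.0119) and than with TBX5 by 0.39 ± 0.10 (0.0262). CLK4, at 11.7, 15.4 and 13.7 CPM with TBX3 and at 8.73 to 10.3 CPM in the 6 TBX4 and TBX5 libraries, differed by 0.48 ± 0.12 (0.0246) and 0.53 ± 0.14 (0.0315). RBM39 differed by 0.32 ± 0.07 from both (0.0116 and 0.0149). SRSF4, an SR protein with a long arginine- and serine-rich tail, held 44.7, 51.6 and 38.2 CPM with TBX3, 33.2, 34.1 and 34.2 with TBX4 and 34.8, 37.5 and 32.9 with TBX5, a difference of 0.39 ± 0.09 (0.0161) and 0.33 ± 0.10 (0.0707). The TBX3 libraries did not overlap those of TBX4 or TBX5 for any of these 4 genes. The genes were chosen by this test on the same libraries, so the separation is not separate evidence.

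**Figure D3:**
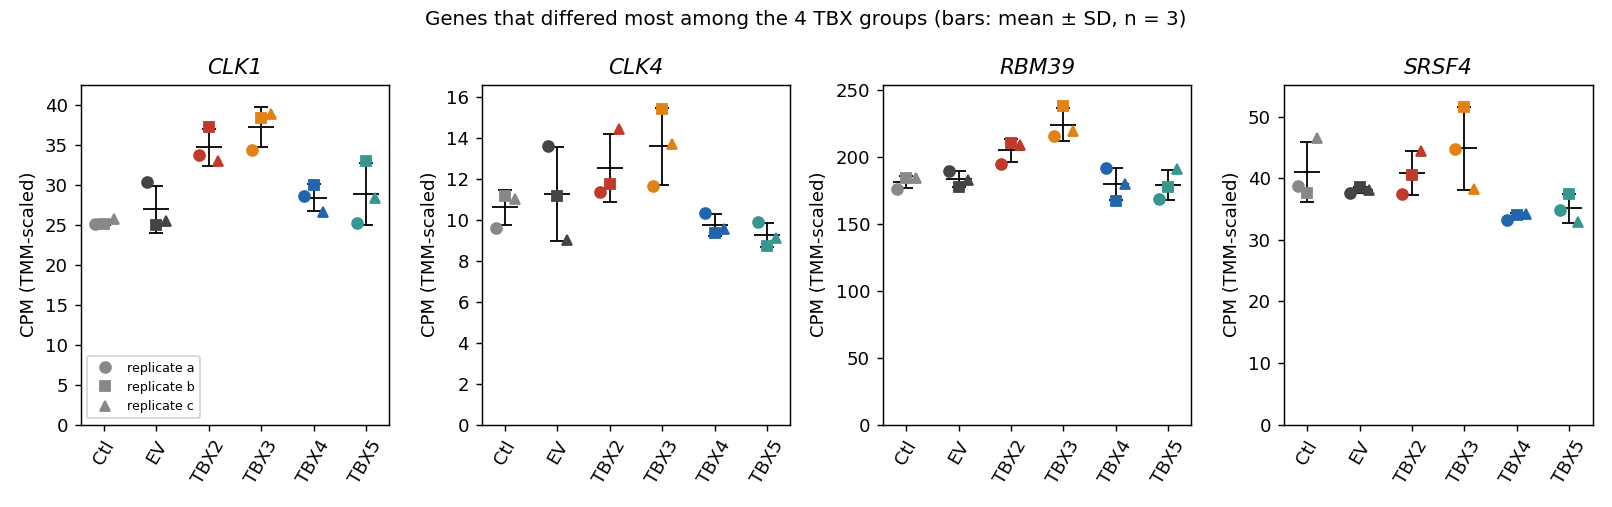
CPM (scaled by the trimmed mean of M-values) of CLK1, CLK4, RBM39 and SRSF4 in each of the 18 libraries by group, with replicate letters as symbols and bars for the mean ± SD of 3 libraries. The TBX3 libraries were above all TBX4 and TBX5 libraries for each gene, and for CLK1 and RBM39 the TBX2 and TBX3 libraries were also above all controls.

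TBX2 and TBX3 differed at 5 of the genes, beside 13.4% of all genes: SRSF5 (lower with TBX2 by 0.33 ± 0.10, adjusted p = 0.0409), SRSF11 (by 0.31 ± 0.09, 0.025), HNRNPF, U2AF2 (by 0.25 ± 0.09, 0.0953) and RBMX (by 0.22 ± 0.07, 0.0585). TBX2 and TBX4 differed at 7, beside 10.1%, of which TRA2A (0.47 ± 0.11, 0.00945), SRRM1 (0.31 ± 0.10, 0.0499), SRSF6 (0.30 ± 0.07, 0.0119), CLK1 (0.30 ± 0.09, 0.0499) and SRSF4 (0.27 ± 0.10, 0.0892) were higher and HNRNPF and RBMX lower with TBX2. TBX2 and TBX5 differed at 4, beside 10.3%: CLK4, CLK1, SRSF3 (0.27 ± 0.07, 0.018) and SRSF6 (0.24 ± 0.08, 0.052), all higher with TBX2. TBX3 differed from TBX4 at 7, beside 7.70%, which were CLK1, CLK4, RBM39, SRSF4, SRSF11, TRA2A and SFPQ, all higher with TBX3. It differed from TBX5 at 5, beside 5.67%, namely CLK1, CLK4, RBM39 and SRSF4, which were higher with TBX3, and SLU7. SRSF5 (0.129), SLU7 (0.153), U2AF2 (0.18) and SFPQ (0.19), which passed in 1 pair each, were not called in the test among all 4 groups. TBX4 and TBX5 differed at none of the 42, beside 0.430% of all genes; their largest differences were at TRA2A (-0.29 ± 0.12, TBX4 minus TBX5, adjusted p = 0.576) and HNRNPA3 (-0.25 ± 0.13, 0.731). The count of 11 became 6 without TBX2 c, 7 without TBX3 b and 7 without TBX4 a.

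Between the kinds of control, EV against Ctl, edgeR called none of the 42 genes, beside 0.385% of all genes tested. At an unadjusted p under 0.05 there were 5 genes by edgeR (CLK2, TRA2A, SRSF9, SF3A1 and SRSF5) and 2 by DESeq2's Wald test, which also called none. Without Ctl c, edgeR called 3, all lower in EV: TRA2A (-0.35, adjusted p = 0.0346), HNRNPA3 (-0.29, 0.0284) and HNRNPD (-0.27, 0.0611).

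Libraries of 1 group differed more for some genes than for others. The coefficient of variation within groups, pooled over the 6 groups, ran from 2.86% to 15.5% with a median of 8.09%, and was highest for HNRNPA3 (15.5%), HNRNPD (14.7%), HNRNPA2B1 (14.6%) and SRRM2 (14.1%). HNRNPA2B1, which binds many of the same sites as HNRNPA1, was at 306, 287 and 251 CPM in the Ctl libraries, 283, 273 and 236 in EV, 273, 207 and 345 with TBX2, 297, 325 and 247 with TBX3, 207, 237 and 286 with TBX4 and 272, 274 and 274 with TBX5. The same library was the lowest of its group for all 4 genes in 5 of the 6 groups: Ctl c, EV c, TBX2 b, TBX3 c and TBX4 a. In TBX2 and TBX4 the highest library, replicate c, was also the same for all 4. HNRNPA3 went from 106 to 179.9 CPM between TBX2 b and TBX2 c, HNRNPD from 97.0 to 155 and SRRM2, a scaffold of nuclear speckles, from 258 to 399. The share of counts in ENSG00000266658 was 40.2% in Ctl c, 12.4% in EV c, 28.2% in TBX2 b, 10.7% in TBX3 c and 13.2% in TBX4 a, and its part in this spread was not tested. None of these 4 genes was called with any factor against all 6 controls with every library kept. HNRNPA2B1 was called with TBX4 without EV c or without TBX4 c, and HNRNPA3 with TBX5 against EV alone. HNRNPA3 shares 54.8% of its exon bases with other genes on either strand, 1.13% on its own strand, and the authors' counting was not stated to use strand.

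**Figure D4:**
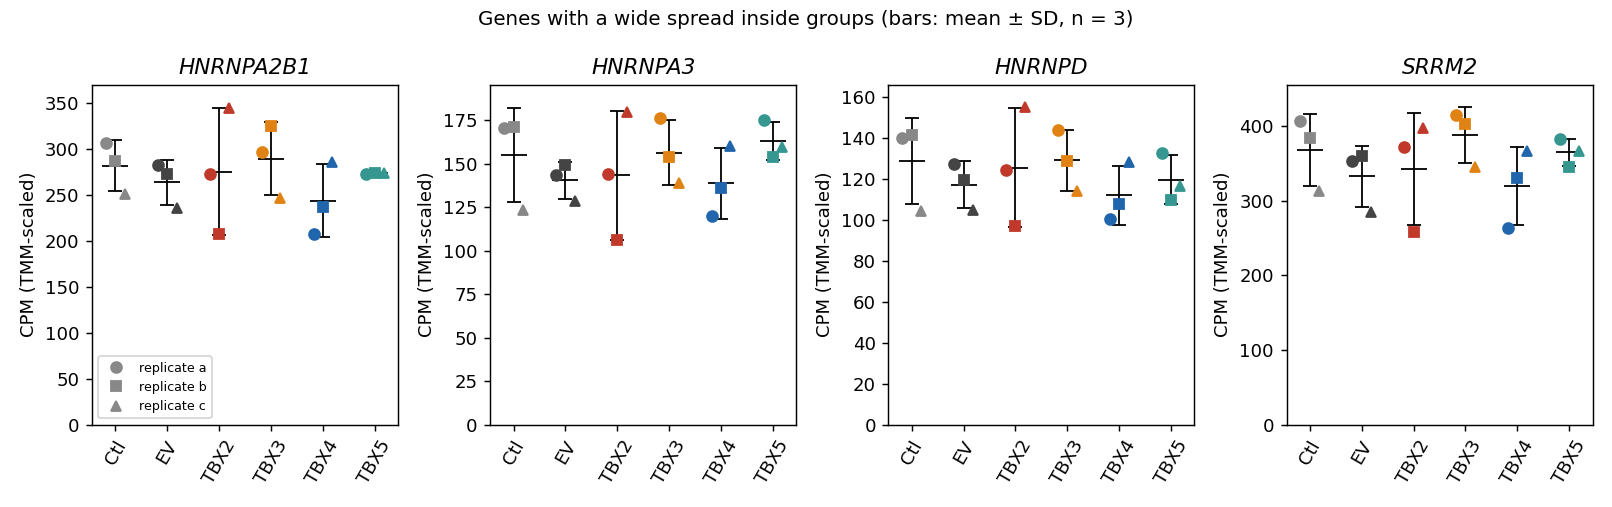
CPM (scaled by the trimmed mean of M-values) of HNRNPA2B1, HNRNPA3, HNRNPD and SRRM2 in each of the 18 libraries by group, with replicate letters as symbols and bars for the mean ± SD of 3 libraries. Replicate c was the lowest library in Ctl, EV and TBX3 for all 4 genes and the highest in TBX2 and TBX4.

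Around these families, 6 further lists of splicing, kinase and decay genes were counted in the same fits. Proteins of the U1 and U2 particles and the Sm ring, which mark the splice sites, were mostly called lower: 9 of 24 with TBX2 and 1 higher, 4 and 0 with TBX3, 4 and 1 with TBX4, and 7 and 0 with TBX5. These calls made up 41.7%, 16.7%, 20.8% and 29.2% of the list in the order TBX2 to TBX5, beside 32.6%, 14.9%, 13.0% and 12.7% of all genes. SNRPD2, part of the Sm ring, fell with all 4 factors, by 0.72, 0.33, 0.27 and 0.44 on the log2 scale in the order TBX2 to TBX5, and its neighbour in the ring SNRPD1 fell with TBX2 (-0.29), TBX4 (-0.25) and TBX5 (-0.34). Of 16 hnRNPs outside the main list, 6 were lower and 1 higher with TBX2, 2 and 1 with TBX3, 6 and 0 with TBX4, and 2 and 0 with TBX5. In the same order these were 43.8%, 18.8%, 37.5% and 12.5%, so the shares with TBX3 and TBX5 were near those over all genes. HNRNPUL1, a relative of HNRNPU, fell in each (-0.61, -0.25, -0.37 and -0.25), whereas PTBP2, the neuronal relative of PTBP1, rose with TBX2 (0.30, adjusted p = 0.0023) and TBX3 (0.41, 9.59e-05) and had 0.13 (0.266) with TBX4 and 0.06 (0.683) with TBX5. PTBP1 itself was called lower with TBX2 alone.

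Genes of the U4/U6.U5 particle and the catalytic step, 31 tested, gave 6 higher and 4 lower calls with TBX2, 3 and 3 with TBX3, 2 and 0 with TBX4, and 1 and 0 with TBX5. At 32.3%, 19.4%, 6.45% and 3.23% of the list, the share with TBX2 was near that over all genes (32.6%), that with TBX3 above it (14.9%), and those with TBX4 and TBX5 below it (13.0% and 12.7%). Within the list BUD31, a small protein of the activated spliceosome, rose with all 4 factors (0.56, 0.29, 0.26 and 0.25), and CRNKL1, a scaffold of the catalytic spliceosome, rose with TBX2 (0.30), TBX3 (0.19) and TBX4 (0.23). Among 11 kinases of the SRPK, PRPF4B, DYRK and HIPK families, 3 were higher and 2 lower with TBX2, and 5 and 1 with TBX3. With TBX4 the calls were 2 and 3, and with TBX5 2 and 0. These were 45.5%, 54.5%, 45.5% and 18.2% of these few genes in the order TBX2 to TBX5, above the shares over all genes. DYRK1B rose with each factor (0.50, 0.44, 0.34 and 0.46), and DYRK4 rose with TBX2 (1.03, adjusted p = 8.03e-07), TBX4 (0.92, 6.12e-06) and TBX5 (0.44, 0.0639) and was at -0.13 (0.671) with TBX3. The 14 genes of the exon junction complex and nonsense-mediated decay gave 2 higher and 2 lower calls with TBX2, 4 and 0 with TBX3, 1 and 2 with TBX4, and 0 and 1 with TBX5. These were 28.6%, 28.6%, 21.4% and 7.14%, below the share over all genes with TBX2 and TBX5 and above it with TBX3 and TBX4. SMG9, which works with the decay kinase SMG1, fell with TBX2 (-0.44), TBX4 (-0.41) and TBX5 (-0.47) and was at -0.09 (adjusted p = 0.313) with TBX3. Of 28 other splicing regulators, 3 were higher and 3 lower with TBX2, 2 and 0 with TBX3, 0 and 5 with TBX4, and 1 and 2 with TBX5. These were 21.4%, 7.14%, 17.9% and 10.7%, below the share over all genes except with TBX4. KHDRBS3, a STAR-family RNA-binding protein, rose with TBX2 (0.32) and TBX5 (0.48), and MBNL3, of the muscleblind family, fell with TBX2 (-0.40, adjusted p = 0.0931). None of the genes in these 6 lists was called in EV against Ctl.

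**Figure D5:**
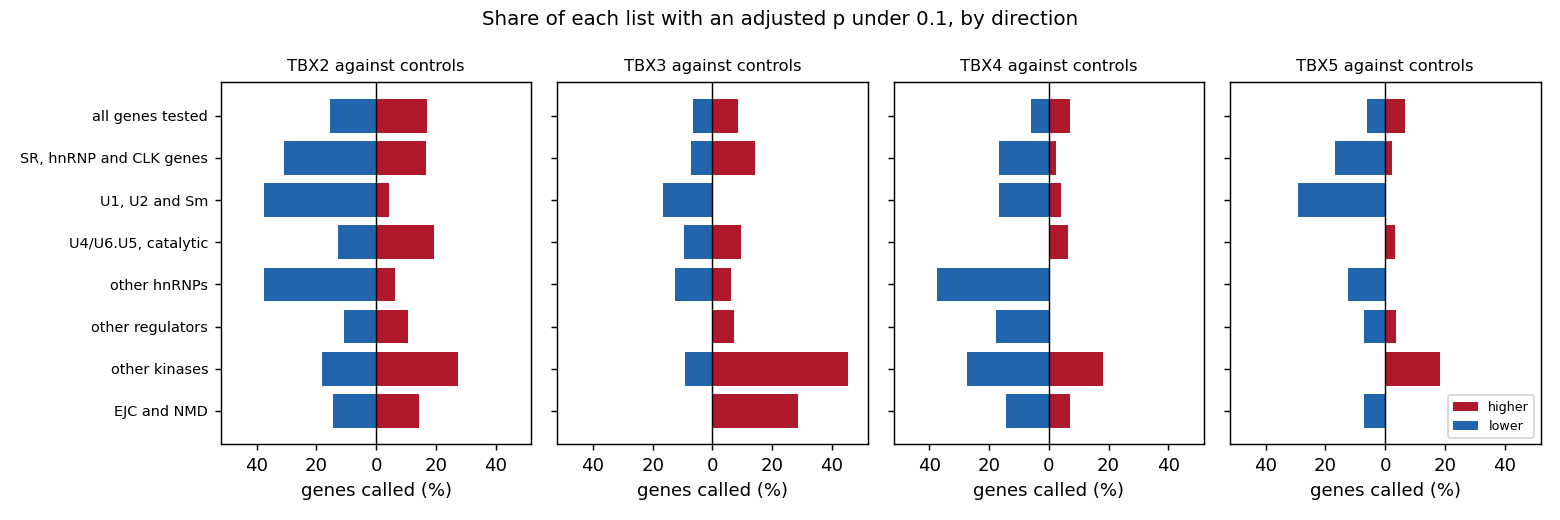
Share of the genes of each list (rows) called higher (red, to the right) or lower (blue, to the left) at an adjusted p under 0.1 in each TBX group against the 6 controls (panels). Lower calls outnumbered higher ones in all 4 panels for the U1, U2 and Sm proteins, with 9, 4, 4 and 7 lower, beside 15.6%, 6.40%, 6.07% and 6.12% lower over all genes. Directions are relative to the median gene.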

How the data were processed

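Total RNA of 18 NCI-H1299 libraries was sequenced in read pairs. The authors demultiplexed with bcl2fastq 1.8.4, aligned with STAR 2.3.0 to GRCh37 and counted reads per Ensembl gene with featureCounts at default settings, and the deposited table holds these raw counts, not normalized. Symbols came from GENCODE models lifted to GRCh37. Exon overlaps and pseudogene numbers were taken from the same models, which are not the annotation that the authors counted with. The test covered genes whose count was above 5 in 10 or more of the 18 libraries. It was run with edgeR 4.0.16 (R 4.3.3), by quasi-likelihood with scaling by the trimmed mean of M-values, in a separate fit of each TBX group with the 6 controls, and in 1 fit of the 12 TBX libraries for differences among factors. All tests were two-sided, with Benjamini-Hochberg adjustment over all 15576 genes and a call at 0.1. The scripts were tested on simulated data. DESeq2 1.42.0, other scalings, filters, thresholds, controls and left-out libraries were tried as alternatives. Between replicates of a group, the chi-square per degree of freedom over all tested genes was 2.12 or more. It was taken on raw counts, without scaling by the trimmed mean and with ENSG00000266658 kept. It was 2.12 between EV a and EV b, where that identifier took 32.7% and 34.7% of the counts. Between EV a and EV c, where it took 12.4% in EV c, the value was 88.1. The value therefore does not measure the spread of the splicing factor genes alone.

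The genes and lists were chosen with earlier results of these data known. Full values are given for genes called in the same direction with 3 or 4 factors, for the largest called change in each comparison, for the largest mean change in each family, for genes called in EV against Ctl, and for SLU7, HNRNPF, HNRNPA1 and NONO. From each further list the text names the 2 largest mean changes among genes called with at least 1 factor. Some items covered by these rules are not reported here. RBM39, CLK4, SRSF4, RBMX and the genes named for their spread were chosen after their values were seen. PECAM1, a planned endothelial marker, could not be matched to 1 identifier. Depth limits the genes with few reads, CLK4, SRSF10 and CLK2, which had as few as 44, 58 and 62 counts in a library.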

Additional observations from a re-analysis of the deposited data

Results flagged for a closer look

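Of the splicing factor genes, 11 differed among the 4 TBX groups when the 12 TBX libraries were fitted with edgeR (quasi-likelihood, p-values adjusted over all genes after Benjamini and Hochberg). The adjusted p was 0.00614 for CLK1, 0.00646 for RBM39, 0.0128 for CLK4, 0.017 for SRSF4, 0.0225 for TRA2A, 0.024 for SRSF11, 0.0248 for SRSF6, 0.052 for SRSF3, 0.0783 for SRRM1, 0.0878 for HNRNPF and 0.0886 for RBMX. The first 4 kept their call whichever library was left out. TRA2A lost it without TBX4 a (0.128), SRSF11 without TBX3 b (0.121) and SRSF6 without TBX2 c (0.113), while SRSF3 kept it in 9 of 12 such fits, SRRM1 and HNRNPF in 6 and RBMX in 3.

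Among the 6 control libraries, 1 stood far from the others for 2 of the 42 genes tested, where chance alone gives about 1 in 20. SRSF4 was at 46.61 CPM in Ctl c and between 37.54 and 38.82 CPM in the other 5 controls. CLK1 was at 30.27 CPM in EV a and between 25.01 and 25.68 CPM in the others, and its log2 fold changes without EV a were 0.46 with TBX2 and 0.56 with TBX3.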

How the results depend on the processing

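With library totals in place of the trimmed mean, the calls fell to 1 with TBX2, 0 with TBX3, 3 (all higher) with TBX4, 0 with TBX5 and 0 among the factors. Library totals also reversed the log2 fold changes with TBX4 of HNRNPA1 (0.053), HNRNPF (0.049), NONO (0.126), SRRM1 (0.22), SRSF5 (0.092) and TRA2A (0.084), those with TBX5 of CLK1 (-0.199), SRRM1 (-0.233) and TRA2A (-0.215), and that of SRSF5 with TBX3 (-0.064). Totals without ENSG00000266658 gave 13 calls with TBX4 and -0.034 for SRSF5 with TBX3. That last value was also below 0 without a filter (-0.001) and against Ctl alone (-0.063), where TRA2A with TBX5 was at -0.014. The number of calls with TBX4 became 5 in 1 fit of all libraries, 4 against EV alone and 5 with the replicate block. With TBX5 it became 4 against EV and 2 against Ctl alone. Against EV alone, 3 of these 4 calls with each factor were also called against all 6 controls. At a threshold of 0.05 there were 5 calls with TBX3, 5 with TBX4, 4 with TBX5 and 7 among the factors. Leaving out 1 library gave 5 to 10 calls with TBX3, 3 to 11 with TBX4, 4 to 8 with TBX5, 0 to 3 in EV against Ctl and 6 to 14 among the factors. It moved the log2 fold changes of SRSF5 between -0.048 and 0.063 with TBX3 and between -0.269 and 0.018 with TBX5, and that of SRRM1 with TBX4 between -0.109 and 0.00. Replicate letters did not pair the libraries (mean correlation of deviations 0.00043 for the same letter and -0.000185 for different letters), and the replicate block changed no other count by over 1.5 times. Of the single-gene values under alternatives, 541 kept direction and call, 75 lost the call, 7 gained it and 17 reversed. The causes were not tested.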
